A study of Rattus norvegicus with 24 samples.

Results

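Txnip, the gene of thioredoxin-interacting protein, was followed through all 24 poly(A) RNA libraries of a study in INS1 cells, a rat insulinoma line that stands in for pancreatic beta cells. It was taken by its rat Ensembl identifier, ENSRNOG00000021201, as 1 of 26689 IDs in the count table and 1 of the 13760 that passed the filter on low counts. All cells carried a transgene from which doxycycline switches on mouse IRE1α, so every group shares the transgene and differs in what was added. Uninduced cells were given the drug vehicles without doxycycline. Induced cells were given doxycycline together with vehicle, PAIR1 or KIRA9. Each of the 4 treatments was sampled at 4 h and at 24 h with 3 libraries, giving 8 groups. The labels state neither the doses of the compounds nor how many clones of the line were used, and no uninduced cells were given a compound.

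Txnip protein belongs to the α-arrestins. It binds reduced thioredoxin and blocks its activity, restrains glucose uptake by promoting the internalisation of glucose transporters, and in beta cells is strongly induced by glucose and promotes apoptosis. IRE1α is a sensor of the endoplasmic reticulum with a kinase domain and an RNase domain. Its RNase splices Xbp1 mRNA and, under strong or lasting activation, also cuts other RNAs, a process known as regulated IRE1α-dependent decay. In rodent cells miR-17, a microRNA that represses Txnip mRNA, has been described among the RNAs lost in this way, and Txnip is for that reason used as a readout of terminal endoplasmic reticulum stress. KIRA compounds bind the ATP site of the kinase and attenuate the RNase, and the title of the series presents PAIRs as ATP-competitive partial antagonists.

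The microRNA named in this background is shown with its rat relatives because all share the stretch that pairs with targets. In the RefSeq table for GRCr8, 5 of 693 mature names carried the seed of miR-17-5p, at 6 loci. The seed, bases 2 to 8 from the 5′ end, is in capitals.
rno-miR-17-5p: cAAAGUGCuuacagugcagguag
rno-miR-20a-5p: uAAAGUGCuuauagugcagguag
rno-miR-20b-5p: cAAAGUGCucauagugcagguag
rno-miR-93-5p: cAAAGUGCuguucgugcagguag
rno-miR-106b-5p: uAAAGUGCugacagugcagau
The mature miR-17-5p sequence is encoded at chr15:98587861-98587883 on the plus strand and again at chrX:137343615-137343637 on the minus strand. Of the relatives of the same length, miR-20a-5p and miR-20b-5p each differ from it at 2 positions and miR-93-5p at 4, all outside the seed. Poly(A) libraries do not measure mature microRNAs, so none of these was quantified, and no Txnip sequence was searched for the seed match.

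Library totals ran from 12.6 to 23.8 M counts. Txnip had 7253 to 24674 counts per library, so that counting error alone was at most 1.2% of its value. It took from 0.0508% of a library, in KIRA9 replicate 1 at 4 h, to 0.131%, in induced replicate 3 at 24 h. Levels below are CPM, the counts out of every 1 M in a library, after TMM scaling, which corrects library totals for differences in RNA composition. In bulk RNA, a change in the number of cells that express a gene and a change in RNA per cell cannot be told apart. A block of 22 IDs was picked by a 4-fold rule between a set of 6 libraries and the remaining 18. That split therefore follows from the choice of IDs and is not a separate finding. The block took 0.497 to 0.567% of the library in the 6 and 0.0164 to 0.0245% in the 18. The 6 include 2 of the 3 induced libraries at 24 h. For induction at 24 h and for each compound against induced cells, values without the 6 are therefore also given, and no Txnip contrast changed its side of the threshold without them. The 6 libraries of induced vehicle cells carry conflicting times. Their time characteristic disagrees with their titles, whereas the column names of the counts give the same times as the titles. Titles were therefore used, and values under the conflicting characteristic are given only as a check. The other IDs could not be matched to gene names here (0 matched), so the beta cell identity of the line and the level of the induced Ern1 were not checked.

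Txnip was highest in induced cells at 24 h and lowest in KIRA9 cells at 4 h, a 2.26-fold span from 517 to 1169 CPM. Between these ends, in falling order, the 4 h means were 818 CPM without induction and 796 with it, followed by 695 in uninduced cells at 24 h, 686 under PAIR1 at 4 h, 578 under PAIR1 at 24 h and 537 under KIRA9 at 24 h. Of the 7 pairs of neighbours in this order, 4 were not called different by edgeR's quasi-likelihood test, adjusted over all IDs. These were uninduced and induced cells at 4 h (adjusted p = 0.95), uninduced cells at 24 h and PAIR1 at 4 h (adjusted p = 0.74), PAIR1 and KIRA9 at 24 h (adjusted p = 0.055), and KIRA9 at 24 h and at 4 h (adjusted p = 0.30). The first place stood apart from the second by 0.52 ± 0.04 (SE) on the log2 scale (adjusted p = 2.6e-11), and these groups differ in both treatment and time. The neighbours were picked by the order of the same means, a choice that the adjustment over IDs does not cover.

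**Figure D1:**
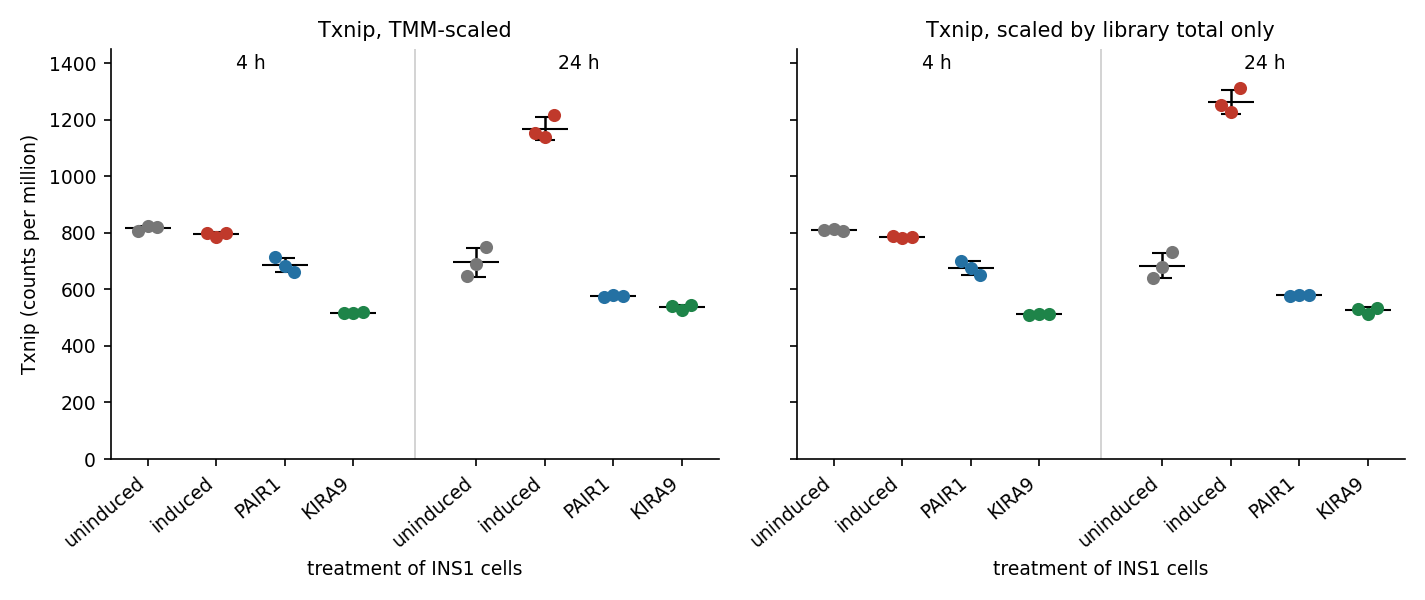
Txnip CPM (vertical axis) in each of the 24 libraries (points), with the mean and SD of each group of 3 (black bars), after TMM scaling (left) and after scaling by library total only (right). The induced libraries at 24 h stand highest in both panels, at a mean of 1169 on the left and 1264 on the right, and no library of another group reaches them.

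Induction of IRE1α was examined first, for what it did to Txnip. At 4 h there was little difference. The uninduced libraries stood at 808, 824 and 821 CPM (mean 818 ± 8.6, SD, n = 3) and the induced ones at 801, 785 and 801 CPM (mean 796 ± 8.9). The induced libraries were the lower ones without overlap, by a small margin, and the log2 change was -0.04 with a 95% interval from -0.12 to 0.04 and an adjusted p of 0.95. In this comparison 0.298% of tested IDs were called in either direction, at an adjusted p below 0.05.

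At 24 h Txnip rose with induction, by 1.68-fold. The uninduced libraries held 646, 692 and 749 CPM (mean 695 ± 51) and the induced libraries 1153, 1138 and 1216 CPM (mean 1169 ± 41). All 3 induced libraries lay far above all 3 uninduced ones, and the uninduced group at 24 h had the widest spread of the 8 groups, a coefficient of variation of 7.4% against 0.23 to 3.7% elsewhere. The 0.23%, for KIRA9 at 4 h, is below the counting error of 1.1% of each of those libraries, so it understates their spread. The same holds for PAIR1 at 24 h, at 0.47% against counting errors of 0.98 to 1.2%. The log2 change with induction at 24 h was 0.75 ± 0.04 (SE, adjusted p = 2.8e-14). Calls at 24 h were common, at 61.8% of tested IDs, so the call by itself sets Txnip little apart. By size, 6.8% of tested IDs rose at least as much, and the median among the IDs called higher was 0.42.

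The scaling bears on this size. Without TMM, as plain CPM, the 24 h libraries held 685 ± 45 before and 1264 ± 44 after induction, and the log2 change was 0.88. Without the 6 libraries that carry the block, which leaves replicate 3 alone in the induced group, it was 0.81 (adjusted p = 2.7e-09). The lone library is then assumed to vary like the other groups. The uninduced cells had no doxycycline, so the agent and the transgene cannot be told apart in this comparison.

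The effect of induction differed between the times, being higher at 24 h by 0.79 ± 0.05 on the log2 scale (adjusted p = 1.2e-11). Such a difference was called in 50.3% of tested IDs. With the conflicting time characteristic in place of the title, the change would be 0.52 at 4 h and 0.19 at 24 h, and the order of the times would be reversed.

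**Figure D2:**
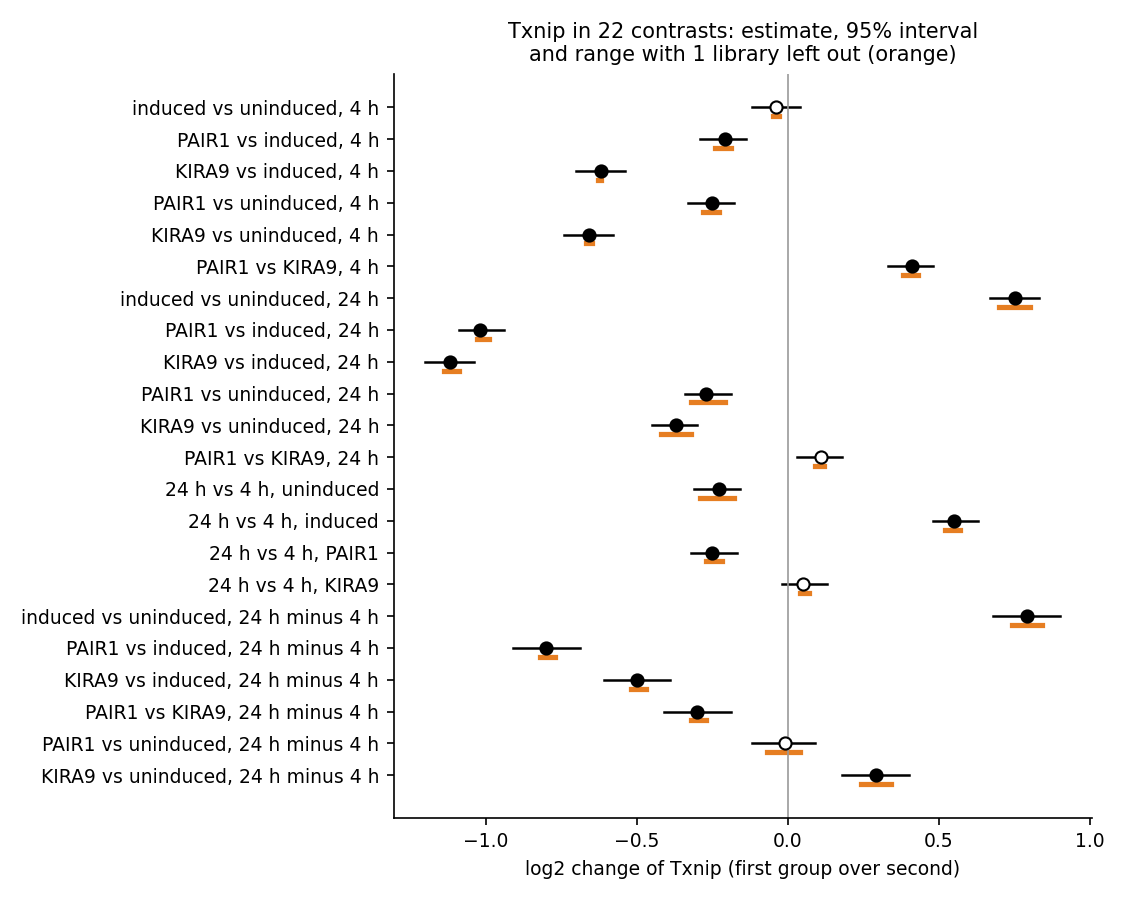
Log2 change of Txnip (horizontal axis, first group over second) in 22 contrasts, with the 95% interval of edgeR's fit (black line) and the range of the estimate with 1 library left out (orange). Filled points have an adjusted p below 0.05. The 4 open points are induction at 4 h, PAIR1 against KIRA9 at 24 h, KIRA9 between the times, and the difference between times of PAIR1 against uninduced cells.

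The next comparisons asked what the kinase modulators did to Txnip in induced cells. Txnip was lower with both compounds already at 4 h, when induction alone showed no called change. With PAIR1 the libraries held 713, 683 and 662 CPM (mean 686 ± 26), and with KIRA9 they held 517, 517 and 519 CPM (mean 517 ± 1.2). Every PAIR1 library was below every induced vehicle library, and every KIRA9 library was below every PAIR1 library. Relative to induced cells Txnip fell by 0.21 on the log2 scale with PAIR1 (SE 0.04, adjusted p = 0.0012) and by 0.62 with KIRA9 (SE 0.04, adjusted p = 3.2e-11).

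PAIR1 changed 3.2% of tested IDs against induced cells at 4 h and KIRA9 changed 11.7%. A fall at least as large as that of Txnip was seen in 7.56% of tested IDs with PAIR1 and in 1.85% with KIRA9. Both comparisons use the same 3 induced libraries. Without the 6 libraries of the block, none of which is a compound library at 4 h, the log2 changes were -0.20 (adjusted p = 0.027) and -0.61 (adjusted p = 5.1e-08). With the conflicting time characteristic for the induced libraries they were -0.77 and -1.18.

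Against uninduced cells, which share no library with the induced group, Txnip was also lower at 4 h. The compound libraries are the same as in the comparisons with induced cells, so the results are not independent of those. The log2 change was -0.25 ± 0.04 with PAIR1 (adjusted p = 0.00021) and -0.66 ± 0.04 with KIRA9 (adjusted p = 1.0e-11), where 2.55% and 10.9% of tested IDs were called. No group received a compound without doxycycline. An effect on Txnip through induced IRE1α and one through other targets therefore cannot be told apart.

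At 24 h Txnip was lower with both compounds than with vehicle, by 2.02-fold with PAIR1 and by 2.18-fold with KIRA9. The PAIR1 libraries stood at 575, 580 and 578 CPM (mean 578 ± 2.7) and the KIRA9 libraries at 540, 526 and 545 CPM (mean 537 ± 9.7). None reached the lowest uninduced library, at 646 CPM. Relative to vehicle the fold was 0.494 under PAIR1, a log2 change of -1.02 ± 0.04 (adjusted p = 2.4e-16). Under KIRA9 it was 0.459, a log2 change of -1.12 ± 0.04 (adjusted p = 1.9e-17).

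Among all tested IDs 54.9% were called under PAIR1 and 62.9% under KIRA9 in these 2 comparisons, which share the induced libraries. Falls of at least the size of that of Txnip were seen in 2.03% of tested IDs with PAIR1 and in 3.02% with KIRA9. Without the 6 libraries of the block, which leaves replicate 3 alone in the induced group, the log2 changes were -1.08 and -1.19. With the conflicting time characteristic they were -0.46 and -0.57.

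**Figure D3:**
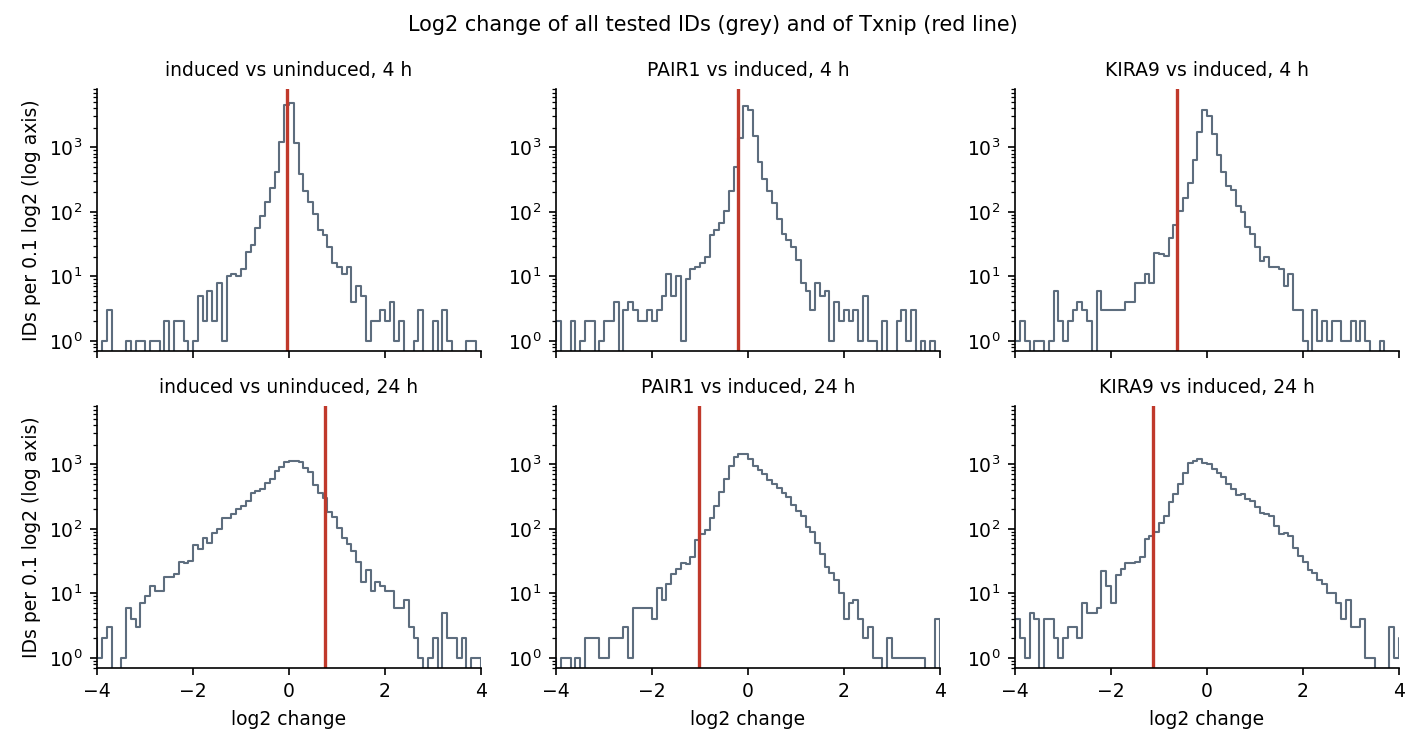
Number of tested IDs (vertical axis, log scale) by log2 change in bins of 0.1 (horizontal axis, shown from -4 to 4, with 5 to 23 IDs beyond it per panel) for induction, PAIR1 and KIRA9 at 4 h (top) and 24 h (bottom), with the red line at Txnip. At 4 h Txnip lies at -0.04 for induction, -0.21 for PAIR1 and -0.62 for KIRA9, and at 24 h at 0.75, -1.02 and -1.12.

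With either compound Txnip at 24 h was below the level of uninduced cells. Set against uninduced cells, the log2 change was -0.27 ± 0.04 with PAIR1 (adjusted p = 5.0e-06) and -0.37 ± 0.04 with KIRA9 (adjusted p = 5.8e-08), in comparisons that called 28% and 23.4% of tested IDs. These SE use a spread shared by all groups, whereas uninduced cells at 24 h had the widest spread (coefficient of variation 7.4%). Over the alternative fits the adjusted p reached 0.006 with PAIR1 and 0.0013 with KIRA9. Changes at least as far down were seen in 15.0% of tested IDs with PAIR1 and in 8.37% with KIRA9. On the log2 scale, with uninduced cells at 0% and induced cells at 100%, the PAIR1 libraries lay at -36.3, -34.5 and -35.0% and the KIRA9 libraries at -48.1, -53.3 and -46.6%. The uninduced libraries themselves ran from -13.8 to 14.5% on this scale, and no compound library fell in that range.

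The direct comparison of the compounds asked whether they left Txnip at different levels. The labels do not give the doses, so the treatments were compared as applied, as 1 pair at each of the 2 times. At 4 h Txnip was 1.33-fold higher with PAIR1 than with KIRA9, a log2 difference of 0.41 ± 0.04 (adjusted p = 1.1e-07), where 2.06% of tested IDs were called. At 24 h the log2 difference was 0.11 with a 95% interval from 0.03 to 0.18, and it missed the threshold after adjustment (adjusted p = 0.055), in a comparison with 16.3% of IDs called. The PAIR1 and KIRA9 libraries did not overlap at 24 h either, but the gap between the closest libraries, 575 and 545 CPM, was small.

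The call at 24 h depended on the method. It passed with DESeq2 (adjusted p = 0.024), with RLE size factors (0.048), with library totals only (0.0064), with upper-quartile scaling (0.0080), and when the 6 compared libraries were fitted alone (0.010). Over all alternatives its adjusted p ran from 0.0064 to 0.17. On the percent scale the compounds differed by 14.1 percentage points (exact two-sided permutation p = 0.1, the smallest that 3 against 3 libraries allow). The difference between the compounds was smaller at 24 h than at 4 h by 0.30 ± 0.05 on the log2 scale (adjusted p = 0.00031), and 8.61% of tested IDs were called for such a change.

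Within each treatment, the levels at 24 h were set against those at 4 h. In uninduced cells Txnip fell by 0.23 on the log2 scale (SE 0.04, adjusted p = 5.8e-05, with 27.2% of IDs called). With only the compared groups in the fit, the SE of this fall was 0.05 and its adjusted p 0.017. With PAIR1 Txnip fell by 0.25 (SE 0.04, adjusted p = 1.3e-05, with 34.3% called). With KIRA9 the log2 change was 0.05, with an interval from -0.02 to 0.13 (adjusted p = 0.30, with 29.6% called). In induced vehicle cells it rose by 0.55 ± 0.04 (adjusted p = 7.3e-12, with 62.4% called).

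The distance of compound-treated cells from uninduced cells was then compared between times. The difference between times of PAIR1 against uninduced cells was -0.01 with an interval from -0.12 to 0.09 (adjusted p = 0.91, with 16.1% of IDs called). For KIRA9 against uninduced cells the gap was smaller at 24 h, by 0.29 ± 0.05 (adjusted p = 0.00054, with 10.9% called). Against induced vehicle cells the effects of both compounds were larger at 24 h. The log2 change was more negative by 0.80 ± 0.05 for PAIR1 and by 0.50 ± 0.05 for KIRA9 (adjusted p = 1.7e-11 and 2.9e-08, with 41.9% and 49.7% of IDs called).

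The IDs whose levels followed Txnip most closely were sought among the 10709 others with a mean of at least 5 CPM, by Pearson's r of log2 CPM over the 24 libraries. The r was at least 0.9 for 18 IDs and at least 0.8 for 210, and -0.9 or lower for 22. All points share the same libraries and fall into the 8 groups, so the values are descriptions. The closest was ENSRNOG00000006118 with r = 0.962, followed by ENSRNOG00000027257 with r = 0.945. The files do not pair these IDs with gene names.

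ENSRNOG00000006118 was at 162 ± 11 CPM in uninduced cells at 24 h, 206 ± 4.4 after induction, 148 ± 4.7 under PAIR1 and 126 ± 0.17 under KIRA9. Its levels at 4 h were 174 ± 5.8, 175 ± 1.6, 157 ± 6.7 and 132 ± 3.0 CPM in the same order of treatments. Its profile resembled that of Txnip, for which it was picked by its r, with a 1.64-fold span between the highest and lowest group against 2.26-fold for Txnip. The lowest group was KIRA9 at 24 h for this ID and KIRA9 at 4 h for Txnip. ENSRNOG00000027257 spanned 1.46-fold, from 48.2 ± 1.6 CPM with KIRA9 at 24 h to 70.3 ± 2.9 in induced cells at 24 h.

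**Figure D4:**
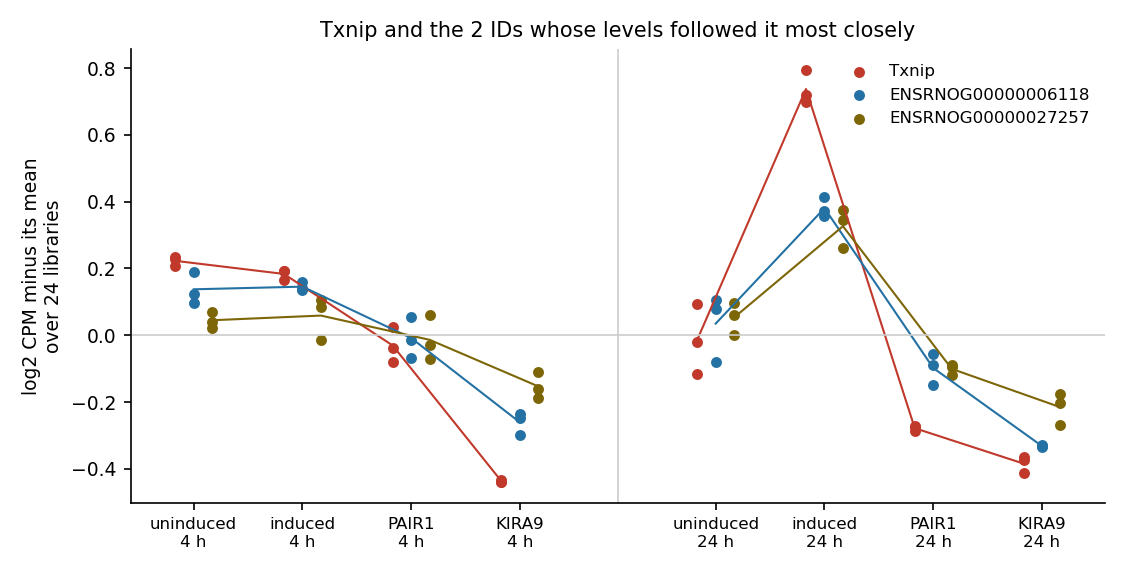
Log2 CPM of Txnip and of the 2 IDs with the highest correlation with it (vertical axis, each minus its own mean over the 24 libraries) in the 8 groups, with 1 point per library and lines through the group means. All 3 are highest in induced cells at 24 h, and the span of Txnip, 2.26-fold, is wider than the 1.64-fold and 1.46-fold spans of the others.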

How the data were processed

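Per the labels' protocols, RNA was selected on oligo(dT) beads and made into libraries by a NEBNext Ultra II procedure. The authors deposited unnormalized counts of reads for each Ensembl gene. HISAT2 and HTSeq are named without versions, per the submitters' processing notes. Genome build, annotation release and strand setting are not given in the sources used here. In the RefSeq annotation of GRCr8 0 genes overlap Txnip, whose neighbours are LOC103691645 and Polr3gl.

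Groups came from sample titles. Counts were tested in R 4.3.3 with edgeR 4.0.16: filterByExpr at a minimum count of 10 (13760 of 26689 IDs kept), TMM, 1 quasi-likelihood model over 24 libraries with a mean per group and no replicate block, and Benjamini-Hochberg adjustment over all 13760 IDs. Calls were made at an adjusted p below 0.05. SE and 95% intervals derive from the F statistic. Log2 CPM used a prior count of 2. The percent scale and the search for similar profiles used these values. Deviations from group means of same-numbered replicates had r = 0.144, 0.296 and 0.177 between uninduced cells at 4 h and 24 h. In no other pair of groups were all 3 over 0.1, and the labels do not say what a number marks. In both of these uninduced groups replicate 2 was among the libraries high in the block of 22 IDs, and replicates 1 and 3 were not. Whether this bears on the r values was not tested. For uninduced cells at 4 h and 24 h, a fit of their 6 libraries with a replicate block, added after seeing the data, gave a Txnip log2 change of -0.23 (adjusted p = 0.0078). The procedure was tested on simulated data. DESeq2 1.42.0, other scalings, filters, sample sets and a replicate block were the alternatives.

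Txnip and the 18 gene lists meant to accompany it were chosen with earlier results of these data known. The rule for named genes was Txnip, members of those lists, and the 5 IDs most like Txnip, of which 2 are printed. The lists could not be read because no ID matched a gene name. The labels do not say whether replicates were separate cultures, so p-values measure the spread between these samples, which may be technical. Over the IDs as a whole, every pair of replicates differed by more than sampling noise (chi-square per degree of freedom 3.52 to 18.5).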

Additional observations from a re-analysis of the deposited data

Results flagged for a closer look

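In 5 tests of a difference between times, the same contrast gave a different effect on Txnip at 24 h than at 4 h. The effect of induction was more positive at 24 h by 0.79 on the log2 scale. The effect relative to induced cells was more negative at 24 h for PAIR1 (-0.80) and for KIRA9 (-0.50). These 3 share the induced libraries at both times, so they are not independent of one another, and all 3 turn round if the conflicting time characteristic is used for those libraries. The difference between PAIR1 and KIRA9 shifted by -0.30 and the gap between KIRA9 and uninduced cells by 0.29. Neither uses the induced vehicle libraries. Both use the KIRA9 libraries at both times, as does the test of KIRA9 against induced cells, so they are not independent results either.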

How the results depend on the processing

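Of 389 alternative values of the 22 Txnip contrasts, 379 kept their direction and side of the threshold or stayed uncalled. With the time characteristic in place of the title, 5 were reversed: induction at 4 h (0.52), its difference between times (-0.32), the change with time in induced cells (-0.55), and the differences between times of PAIR1 (0.31) and KIRA9 (0.61) against induced cells. The other 5 were PAIR1 against KIRA9 at 24 h, called with a log2 difference of 0.11 under RLE, DESeq2 and the compared groups alone and 0.14 under library totals or upper-quartile scaling. With any 1 library left out it was 0.09 to 0.12 (adjusted p 0.069 to 0.17).

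The percent of the induction change retained stayed below 0. For PAIR1, at -35.3%, it was -27.1 with library totals, -29.2 with upper-quartile scaling, -37.3 without the filter, -31.8 without the 6 libraries of the block, -135 with the other time label and -45.4 to -26.5 with 1 library left out (uninduced replicates 1 and 3). For KIRA9, at -49.3%, it was -42.6, -45.1 and -188 with library totals, without the 6 libraries and with the other time label, and -60.6 to -39.8 with 1 library left out. Without the 6 libraries the induced end of this scale rests on replicate 3 alone. The difference between compounds, 14.1 percentage points, was 53.7 with the other time label. The cause was not tested.

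Same-numbered replicates deviated together (every r over 0.1) in 1 of 28 pairs of groups, and a fit with the replicate block gave 0.75 for induction at 24 h and changed no Txnip call. It moved the count of IDs called for induction at 4 h from 41 to 44.

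Some counts of called IDs moved by over 1.5 times. With the compared groups alone they were 27 for induction at 4 h (otherwise 41; 67 with DESeq2), 280 and 198 for PAIR1 at 4 h against induced (440) and uninduced cells (351), 2070 for KIRA9 against uninduced cells at 24 h (3221) and 2219 for time in uninduced cells (3739). Without the 6 libraries the last was 2187, PAIR1 at 4 h gave 246 and 161, and KIRA9 at 4 h gave 966 (1606) and 944 (1505). Without 1 library, PAIR1 at 4 h gave 244 to 292 against induced (PAIR1 or induced replicate 2 or 3), 196 to 231 against uninduced cells (any) and 187 against KIRA9 (283; PAIR1 replicate 1). The other time label gave 8700 and 3787 (8503) for induction at 4 h and 24 h, 8733 and 4646 (7556) for PAIR1 and 8939 and 4218 (8660) for KIRA9 against induced cells.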
